A study of Mus musculus with 2 samples.

Results

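The forkhead transcription factor genes of the mouse were examined for NANOG binding in embryonic stem cells. The members are the protein-coding genes of the mm10 annotation whose symbol is Fox followed by one letter from a to s and a number, without Foxd3 and Foxa2, which gives 42 genes of 21887 on assembled chromosomes. NANOG was mapped by chromatin immunoprecipitation and sequencing (ChIP-seq) in E14TG2a.4, a male embryonic stem cell line of mouse strain 129/Ola. Both samples of the series are biological replicates of this line, each with 1 technical replicate, the same NANOG antibody and the labels "embryonic" and 3.5 day. There is therefore 1 group, no treatment and no second genotype, and both replicates come from a single cell line. No RNA was measured, so the identity of the cells rests on the labels and it is unknown which Fox genes these cells transcribe.

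Forkhead proteins bind DNA through a winged-helix domain, the forkhead box, and are sorted into lettered subfamilies by the sequence of that domain. Several open closed chromatin in endoderm, others carry signals from insulin, Nodal and hedgehog to the genome, and many pattern single organs of the embryo. NANOG is a homeodomain protein of the pluripotency network that acts with OCT4 and SOX2 and often binds enhancers far from promoters.

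The sequences under the highest mm9 peaks are shown first. These sequences are centred on peak midpoints, which need not be where the mm10 summits of the results below lie. They were read from the mm9 genome, plus strand, as the midpoint and 100 bases to each side of the peak with the highest enrichment at each of the 8 members with the highest mm9 peaks. They lie at chr4:119171254-119171454 for Foxj3, chr5:142891453-142891653 for Foxk1, chr12:100538251-100538451 for Foxn3 and chr3:52058156-52058356 for Foxo1. Those of the other 4 lie at chr6:98963858-98964058 for Foxp1, chr13:99076444-99076644 for Foxd1, chr17:48051746-48051946 for Foxp4 and chr6:122720516-122720716 for Foxj2. The Foxk1, Foxn3, Foxp1 and Foxp4 sequences are intronic in the gene itself, the Foxj2 sequence is in an intron of Slc2a3, a glucose transporter gene, and the other 3 are intergenic. The authors' mm9 enrichments of these peaks were 28.4 (Foxj3), 25.7 (Foxk1), 23.2 (Foxn3), 18.8 (Foxo1), 17.6 (Foxp1) and 10.7 (Foxd1 and Foxp4), and Foxj2 came last of the 8. Capitals mark matches, on either strand, to the 6 motifs searched: the octamer ATGCAAAT bound by OCT4, the SOX motif AACAANG, the NANOG homeodomain motif TAATGG, the forkhead motif GTAAACA and its core TAAACA, and the ESRRB motif TCAAGGTCA.
Foxj3: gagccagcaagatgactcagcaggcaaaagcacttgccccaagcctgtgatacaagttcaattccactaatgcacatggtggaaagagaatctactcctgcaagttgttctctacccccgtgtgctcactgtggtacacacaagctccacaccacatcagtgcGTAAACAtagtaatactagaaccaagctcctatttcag
Foxk1: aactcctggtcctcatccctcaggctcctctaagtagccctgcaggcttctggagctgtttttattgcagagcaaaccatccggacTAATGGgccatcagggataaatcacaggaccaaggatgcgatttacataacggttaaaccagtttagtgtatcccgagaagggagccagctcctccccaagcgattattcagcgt
Foxn3: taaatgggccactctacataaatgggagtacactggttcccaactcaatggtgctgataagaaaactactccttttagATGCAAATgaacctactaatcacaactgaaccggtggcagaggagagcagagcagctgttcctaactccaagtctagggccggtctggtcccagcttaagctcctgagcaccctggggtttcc
Foxo1: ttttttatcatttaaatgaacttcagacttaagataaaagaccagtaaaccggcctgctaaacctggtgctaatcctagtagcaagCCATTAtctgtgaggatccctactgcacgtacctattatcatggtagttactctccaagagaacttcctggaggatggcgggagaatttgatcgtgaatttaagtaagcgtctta
Foxp1: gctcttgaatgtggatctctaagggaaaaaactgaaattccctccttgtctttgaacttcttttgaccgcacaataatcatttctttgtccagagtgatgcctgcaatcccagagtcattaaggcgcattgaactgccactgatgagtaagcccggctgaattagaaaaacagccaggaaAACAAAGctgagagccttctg
Foxd1: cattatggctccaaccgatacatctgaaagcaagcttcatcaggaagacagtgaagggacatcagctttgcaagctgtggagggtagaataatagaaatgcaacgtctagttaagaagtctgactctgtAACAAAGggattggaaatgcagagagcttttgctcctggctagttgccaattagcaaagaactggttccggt
Foxp4: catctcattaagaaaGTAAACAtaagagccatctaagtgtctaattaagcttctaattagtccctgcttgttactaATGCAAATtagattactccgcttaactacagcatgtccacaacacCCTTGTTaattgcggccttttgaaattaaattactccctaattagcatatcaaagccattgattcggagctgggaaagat
Foxj2: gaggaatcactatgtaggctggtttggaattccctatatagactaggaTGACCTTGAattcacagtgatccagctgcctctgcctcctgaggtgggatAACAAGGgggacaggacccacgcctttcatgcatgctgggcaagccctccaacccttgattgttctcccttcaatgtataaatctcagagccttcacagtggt

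In these sequences the octamer stood near the centre at Foxn3 and Foxp4, starting 22 and 24 bases before the midpoint as positions -22 and -24. Foxk1 and Foxo1 each held 1 NANOG homeodomain match at position -14, on opposite strands. Foxp4 was the only one of the 8 with an octamer, a SOX match and a forkhead match together, and its SOX match began at position 21. The Foxj2 sequence held an ESRRB match at -52 and a SOX match at -2. The full forkhead motif was present at Foxj3 (position 63) and Foxp4 (position -85), in both cases over 50 bases from the midpoint. A match describes letters in the sequence and shows no bound factor.

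On mm10, NANOG summits were assigned to 22 of the 42 Fox genes, which was close to the share for genes at large. A summit was counted for a gene when it fell in the gene body or within 50 kb of the transcription start site (TSS), taken as the 5' end of the gene. In the authors' optimal set of 15891 peaks, 22 of 42 Fox genes had at least 1 summit (52.4%, 95% exact Clopper-Pearson interval 36.4 to 68.0), against 48.4% of the 21539 protein-coding genes that could be counted. At least 2 summits were found at 9 Fox genes (21.4%, against 22.8% of all genes), at least 3 at 5 genes (11.9% against 10.8%) and at least 5 at 3 genes (7.14% against 2.54%). The median was 1 summit per Fox gene, with a mean of 1.21, against a median of 0 and a mean of 0.932 over all genes. The order of the medians did not hold in other lists: it was 0.5 for Fox genes and 1.00 for all genes with the top regions of replicate 2 alone, and 0 for both with those of replicate 1 alone and in the conservative set. The interval covers counting error only, and the optimal set combines both replicates, so it carries no replicate error.

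The 22 genes held 51 distinct summits, 0.321% of the optimal set, and no summit was shared between Fox genes. The highest signal per gene had a median of 41.6 and ran from 23.8 at Foxr1 to 255 at Foxj3. Over all genes with a summit the median was 52.0. The signal is the authors' value for each peak on a scale that is not stated, and here it only ranks peaks within a list. As a rank, the highest Fox summit per gene lay at the top 47.8% of the optimal set in the median (95% order-statistic interval over the 22 genes 16.8 to 63.8), compared with 36.5% for all genes with a summit. This order turned in the 4 other lists counted: the Fox median lay at the top 28.9% against 39.2% in the conservative set, 33.3% against 36.6% in replicate 1 alone, 35.1% against 39.7% in replicate 2 alone and 34.0% against 41.3% above the median signal. Of the 22 genes, 13 had a best signal above the median of the optimal set, 40.2, and 5 reached 100: Foxj3, Foxn3, Foxk1, Foxo1 and Foxp1. Over all protein-coding genes, 6615 of the 10424 with a summit had one above that median. The share of all genes that reached 100 was not counted.

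**Figure D1:**
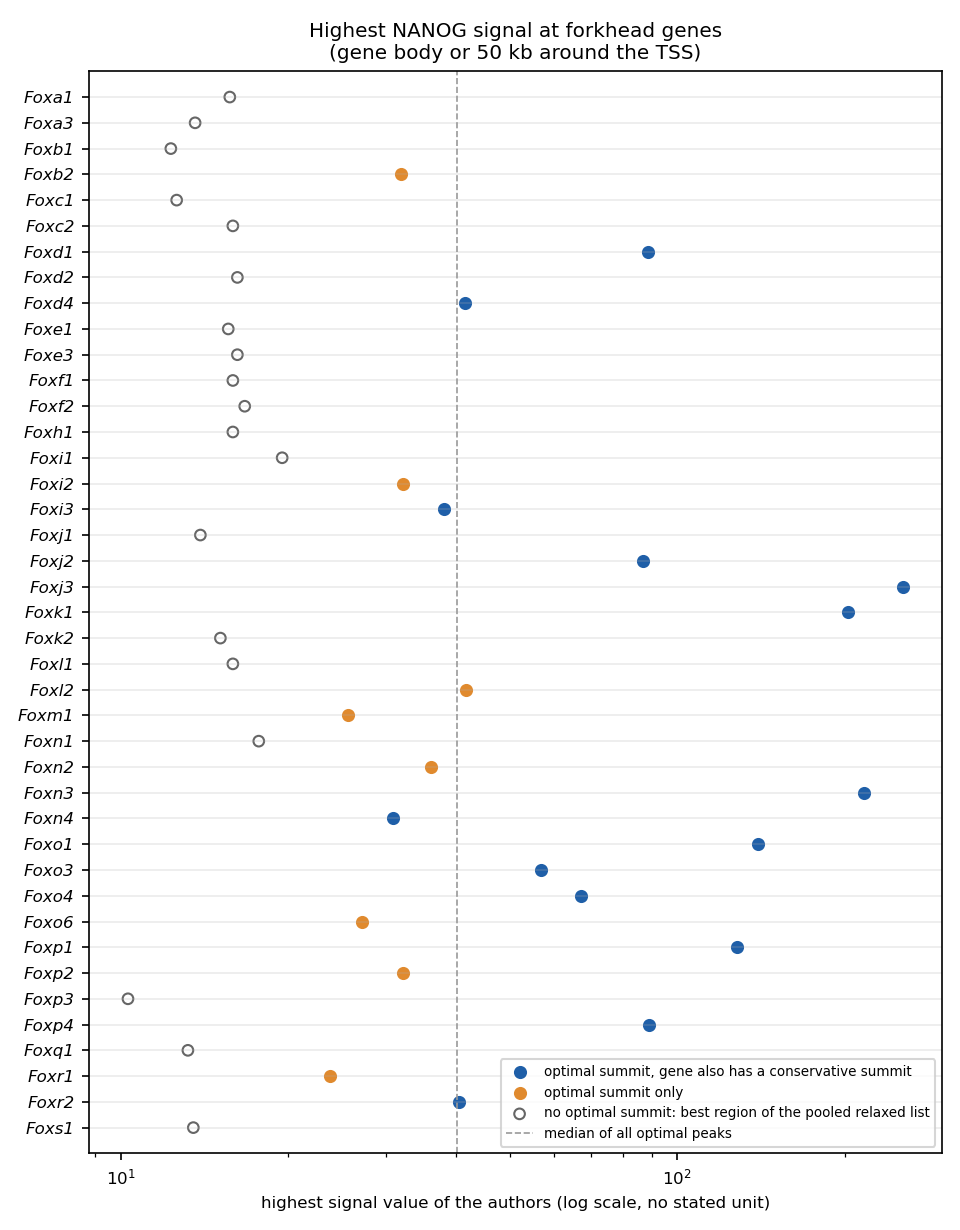
Highest signal at the Fox genes named in the text, on a log axis (authors' values, no stated unit), with filled dots for optimal summits, open circles for the best region of the pooled relaxed list at genes without one, and a dashed line at the optimal median of 40.2. Foxj3 (255), Foxn3 (217) and Foxk1 (203) lie farthest to the right, and the open circles run from 10.3 to 19.5.

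Other ways of counting moved the Fox share to either side of that of all genes. With the top regions of replicate 1 alone 19 Fox genes had a summit (45.2%, against 48.5%), and with those of replicate 2 alone 21 did, against 53.9% of all genes. A 100 kb window gave 26 (61.9%, against 67.1%), and 50 kb without gene bodies gave 20 (47.6%, against 44.8%). A 10 kb window with gene bodies gave 15 (35.7%, against 25.3%), and assigning each summit only to its nearest TSS gave 17 (40.5%, against 33.3%). Above the median signal 13 Fox genes had a summit (31.0%, against 30.7%). On mm9, with its own peaks and annotation, 21 Fox genes had one, against 45.3% of all. The Fox share lay above that of all genes in the optimal set, with the 10 kb window, without gene bodies, by the nearest TSS, above the median signal and on mm9, and below it with the 100 kb window, with either replicate alone and, at 33.3% against 33.7%, in the conservative set.

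The members were also counted by subfamily, in groups of few genes. Every member of the FoxO, FoxR and FoxM subfamilies had a summit (4 of 4, 2 of 2 and 1 of 1). FoxP and FoxN followed with 3 of 4 each and 12 summits each. Of the 19 lettered subfamilies represented, 8 had no summit at any member counted, among them FoxA, FoxC, FoxE, FoxF, FoxH, FoxQ and FoxS. Each of these 8 has only 1 or 2 members counted here, FoxA without Foxa2. Over all protein-coding genes 48.4% had a summit, so small groups without one carry little weight. No test was made of these differences.

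The FoxO proteins are the effectors that insulin and growth factor signalling keeps out of the nucleus through AKT. Foxo1 had the highest summit among them, 14.0 kb upstream of its TSS at chr3:52254196-52254443, in sequence outside any protein-coding gene. Its signal was 139.8 (rank 1228 of the optimal set), 114 in replicate 1 (rank 1073) and 27.0 in replicate 2 (rank 1890). A second Foxo1 summit 1.58 kb upstream of the TSS had a signal of 41.6 and ranked 7455 and 9459 in the replicates. Both Foxo1 summits were thus among the top regions of both replicates, and Foxo1 was the nearest TSS to both. The Foxo3 summit lay 30.0 kb inside the gene at chr10:42246519-42246882, with a signal of 56.9 (rank 5138), 43.2 in replicate 1 (rank 5299) and 12.6 in replicate 2 (rank 6092). The Foxo4 summit had a higher signal, 67.2 (rank 4071), with 55.6 in replicate 1 (rank 3695) and 12.9 in replicate 2 (rank 5790). It lay 19.4 kb downstream of the Foxo4 TSS at chrX:101273466-101273829 and only 0.443 kb from the TSS of Med12, a subunit gene of the Mediator complex, so its assignment to Foxo4 rests on the window alone. Foxo6, the brain-enriched member, had 1 summit 15.9 kb inside the gene with a signal of 27.1. It was among the top regions of replicate 1 (rank 13636) and far down the list of replicate 2 (rank 142295).

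FoxP proteins are repressors that pair with one another through a leucine zipper. Foxp1, which is known to switch an exon of its DNA-binding domain in embryonic stem cells, had the most summits of any Fox gene, 10, of which 9 lay in its 597 kb body. The highest, at chr6:99013858-99014067, was 509 kb into the gene with a signal of 128 (rank 1442), 92.2 in replicate 1 (rank 1627) and 34.4 in replicate 2 (rank 1277). The next had a signal of 98.4, 282 kb into the gene, with ranks of 2072 and 3532 in the replicates. All 10 Foxp1 summits were among the top regions of replicate 1, 7 were among those of replicate 2 and 7 were in the conservative set. Foxp4, an airway and lung regulator, had 1 summit 9.73 kb into the gene at chr17:47914723-47915086, with a signal of 89.2 (rank 2667), 58.2 in replicate 1 (rank 3442) and 32.0 in replicate 2 (rank 1451). Foxp2, known for its part in vocal learning, has a body of 541 kb and held 1 summit, 539 kb from the TSS and close to the end of the gene. Its signal was 32.2, and it had a region in replicate 1 (rank 7347) but none in the relaxed list of replicate 2. Foxp3, the regulatory T cell factor, had no summit, and its nearest one was 150.4 kb upstream.

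Some Foxp1 summits lay near starts inside the gene, which were examined after the values were seen. No share of all summits within 2 kb of a start was counted. The RefSeq promoter table gives 3 starts for Foxp1, at 1.75, 256 and 494 kb from the annotated 5' end. Within 2 kb of the 2 inner starts lay 4 summits, with signals of 30.5 to 47.0. At the start at chr6:99266515 the summit of signal 47.0 was 91 bases before the start, with a signal of 22.9 in replicate 1 (rank 11486) and 20.5 in replicate 2 (rank 2911). A summit of signal 30.5 lay 1.66 kb after it. At the start at chr6:99028298, summits of signals 37.8 and 38.8 lay 0.772 and 1.43 kb before it. The 250 bases before the first of these inner starts are shown because a NANOG summit falls within them. They span chr6:99266516-99266765 on mm10 (RefSeq GRCm38.p6), are written 5' to 3' on the minus strand, on which Foxp1 is transcribed, and capitals mark the SOX match and both forkhead core matches.
Foxp1 inner start: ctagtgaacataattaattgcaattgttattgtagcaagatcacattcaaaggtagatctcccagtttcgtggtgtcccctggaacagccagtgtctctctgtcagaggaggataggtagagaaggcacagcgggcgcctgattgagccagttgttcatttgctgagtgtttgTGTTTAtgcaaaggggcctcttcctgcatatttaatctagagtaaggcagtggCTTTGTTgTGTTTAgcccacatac
The SOX letters, AACAANG on either strand, occur in 10.6% of 21263 promoter windows of the same length, and the forkhead core letters TAAACA in 10.5%. In this window the SOX match and the nearer core match start 24 and 16 bases before the start, at positions -24 and -16, and the other core match at -77. Its GC content was 45.2%, against a median of 55.6% over all windows.

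**Figure D2:**
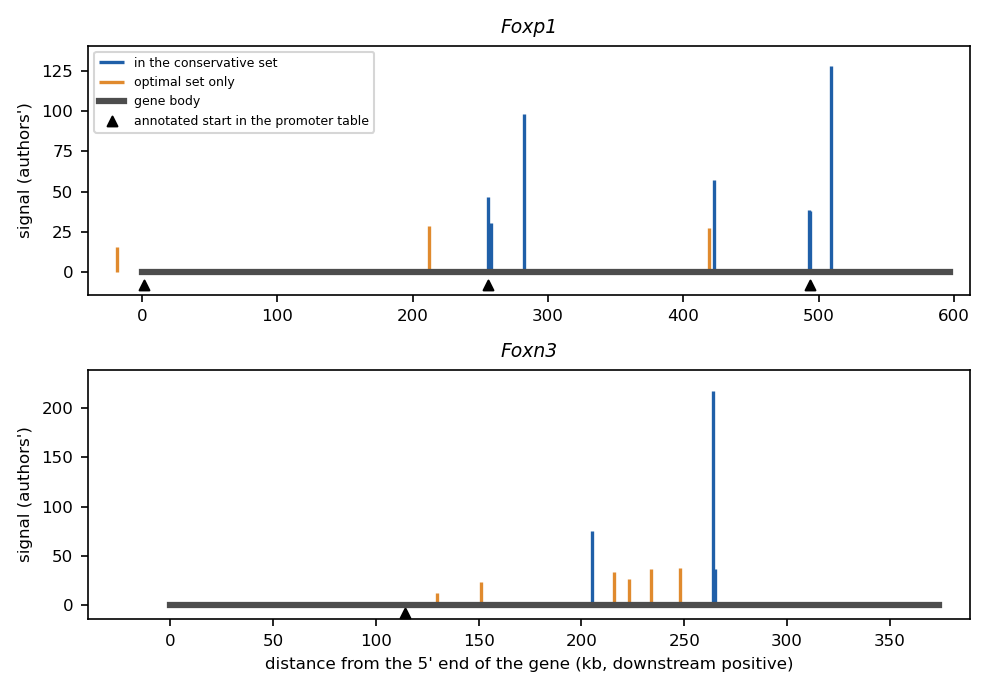
Optimal summits along Foxp1 and Foxn3 by distance from the annotated 5' end in kb, with the authors' signal as bar height, blue bars for summits in the conservative set, orange bars for the others and triangles for starts of the promoter table. Foxn3 has 7 of its 9 summits in one run of 59.9 kb. The 10 Foxp1 summits include 1 upstream of the gene and 4 near its inner starts, with a largest gap of 231 kb.

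The FoxN subfamily had as many summits as FoxP. Foxn3, a repressor first described as a checkpoint suppressor, held 9 summits, all in its 374 kb body. The highest lay 264 kb from the 5' end at chr12:99299908-99300217, with a signal of 217 (rank 463), 139 in replicate 1 (rank 664) and 81.2 in replicate 2 (rank 229). The second had a signal of 74.9 and ranks of 3360 and 4467. The other 7 had signals from 12.7 to 37.5. Of the 9, 7 formed a run of 59.9 kb between positions 99299008 and 99358924 of chromosome 12 in which neighbours were under 20 kb apart. Foxn3 summits were among the top regions of replicate 1 in 7 of 9 cases and of replicate 2 in 3 cases, and the same number, 3, was in the conservative set. None was within 50 kb of the 5' end, so Foxn3, like Foxp2, has summits only through the gene body rule. The RefSeq promoter table gives its start 114 kb further in, and from there the nearest summits were 16.3 and 37.2 kb away. Foxn2 had a pair of summits 0.199 kb apart, 28.3 and 28.5 kb into the gene, with signals of 36.1 (rank 8987, chr17:88468793-88469156) and 33.0. Both overlapped the same region of replicate 1 (rank 9100, signal 27.9) and of replicate 2 (rank 49773, signal 7.09). The Foxn4 summit, at a gene needed for amacrine cells of the retina, lay 25.4 kb upstream within Myo1h. It had a signal of 30.9 and ranked higher in replicate 2 (5069) than in replicate 1 (18465). Foxn1, the gene mutated in nude mice, had none.

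Foxj3, an activator of Mef2c in muscle, had the highest summit of the family. It lay 41.1 kb upstream at chr4:119498401-119498707, with a signal of 255 (rank 312), 189 in replicate 1 (rank 285) and 68.8 in replicate 2 (rank 334). Its nearest TSS was that of Rimkla, 5.96 kb away, so the strongest Fox summit is not nearest to a Fox gene. The other 4 Foxj3 summits had signals of 98.8, 57.3, 43.4 and 29.3, and 3 of them lay inside the gene. Of the 5, 4 were in the conservative set and all 5 were among the top regions of replicate 1. Foxj2 had 3 summits, the highest of them 49.6 kb upstream inside Slc2a3 at chr6:122770541-122770700. That summit had a signal of 86.9 (rank 2786), 56.3 in replicate 1 (rank 3641) and 28.8 in replicate 2 (rank 1704). The others had signals of 29.6 and 23.2, each among the top regions of 1 replicate only. Foxj1, the master gene of motile cilia, had no summit in the window.

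Foxk1 and Foxk2 encode repressors of autophagy genes, and only Foxk1 had summits. The highest lay 14.1 kb into Foxk1 at chr5:142415463-142415713, with a signal of 203 (rank 551), 161 in replicate 1 (rank 464) and 41.7 in replicate 2 (rank 895). Further summits 38.9 and 50.6 kb into the gene had signals of 31.1 and 28.7. The first of these ranked 13128 in replicate 1 and 5774 in replicate 2. The second ranked 10880 in replicate 1 and 198627 in replicate 2. Foxk2 has a body of 49.9 kb, and its nearest summit was 106 kb upstream. Foxm1, which drives genes of mitosis, had 1 summit of signal 25.6, which lay 7.60 kb upstream of Foxm1 within Tulp3 and 0.481 kb from the Tulp3 TSS. It was supported by replicate 2 (rank 6588) and ranked 22441 in replicate 1. The Foxm1 window held 5 top regions of replicate 2 and 0 of replicate 1.

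Among the genes that pattern single organs, Foxd1, a marker of kidney stroma, had 2 summits. The higher lay 47.7 kb upstream at chr13:98306365-98306728, nearest to Btf3 at 10.5 kb, with a signal of 88.6 (rank 2701), 72.9 in replicate 1 (rank 2428) and 13.9 in replicate 2 (rank 5138). The other, 4.47 kb downstream of the TSS, had a signal of 19.3 and was outside the top regions of both replicates. Foxd4 had 1 summit of signal 41.6 (rank 7608) at chr19:24859431-24859794, 41.4 kb downstream and inside Pgm5, with a signal of 31.7 in replicate 1 (rank 7880) and 8.83 in replicate 2 (rank 17858). Foxl2, the ovarian granulosa cell factor, had 1 summit of signal 41.7 (rank 7598) at chr9:98986020-98986383, 30.6 kb downstream. That summit lay 0.171 kb from the TSS of Faim and had a signal of 35.3 in replicate 1 (rank 6841) and 4.51 in replicate 2 (rank 271442). Foxi3, needed for the ear and teeth, had 1 summit 7.70 kb downstream at chr6:70964127-70964490, with a signal of 38.1 (rank 8476), 29.1 in replicate 1 (rank 8685) and 11.2 in replicate 2 (rank 7825). Foxi3 was the nearest TSS to its summit, which both replicates supported, whereas the Foxd4 and Foxl2 summits had a top region in replicate 1 only and lay nearer to other genes. Foxi2 had 1 summit 17.3 kb upstream (signal 32.1) and Foxb2 had 1 summit 16.8 kb downstream (signal 31.9), both with a region in replicate 1 and none in the relaxed list of replicate 2.

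Foxr2, a gene of the X chromosome known from activating events in brain tumours, had 1 summit inside the gene at chrX:153119052-153119415. It had a signal of 40.5 (rank 7873), 24.5 in replicate 1 (rank 10607) and 15.8 in replicate 2 (rank 4283). The summit was 4.65 kb from the 5' end and 0.446 kb after the start in the RefSeq promoter table. Foxr1 had a pair of summits 0.219 kb apart with signals of 23.8 and 7.72, 33.5 and 33.3 kb downstream and next to the TSS of Trappc4. The Foxr1 pair overlapped a top region of replicate 2 (rank 13667) and a lower one of replicate 1 (rank 27223).

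The 20 Fox genes without a summit included Foxa1, Foxa3, Foxb1, Foxc1, Foxc2, Foxd2, Foxe1, Foxe3, Foxf1, Foxf2, Foxh1, Foxi1, Foxj1, Foxk2, Foxl1, Foxn1, Foxp3, Foxq1 and Foxs1. Foxa1 and Foxa3 are pioneer factors of liver and gut, Foxe1 acts in the thyroid and Foxe3 in the lens, and Foxf1, Foxf2 and Foxl1 act in gut or lung mesenchyme. Foxh1 encodes the partner through which SMAD2 and SMAD3 reach Nodal targets, and Foxh1's nearest summit was 148 kb away. The distance to the nearest summit was lowest at Foxj1, 52.2 kb, and had a median of 144 kb. It was over 100 kb at 16 of the 20. The other 4 were Foxj1 (52.2 kb), Foxc1 (60.2 kb), Foxi1 (68.5 kb) and Foxb1 (92.0 kb). Foxj1 and Foxc1 are thus the genes just outside the 50 kb limit, and Foxj2 (49.6 kb) and Foxd1 (47.7 kb) had their highest summits just inside it.

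Regions of the authors' relaxed pooled list, which holds peaks and background, were present in the windows of all 20. The share of all genes with such a region was not counted, so their presence marks no binding site. In the authors' relaxed pooled list of 300000 regions, the best region of each ranked from 18946 (Foxi1, signal 19.5) to 99254 (Foxp3, signal 10.3). None of the 20 had a top region in replicate 1, where top means as many regions as the optimal set has peaks. Foxh1 came nearest, with a best region there of rank 16027 (signal 17.2), just past 15891. In replicate 2, 3 of the 20 had a top region: Foxi1 with 2, and Foxa3 and Foxj1 with 1 each. The same shares over all genes without an optimal summit were not counted. On mm9, whose lists were made separately, a series-level peak of enrichment 3.86 lay 32.4 kb from Foxd2 and 49.5 kb from Foxe3, and 1 of enrichment 6.21 lay 45.7 kb from Foxf2.

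Groups of neighbouring genes, 3 in number, account for 8 of the 20 and were singled out after their values were seen. Foxq1, Foxf2 and Foxc1 lie within 252 kb of chromosome 13 (chr13:31558170-31810635), a stretch with 2 optimal summits between Foxf2 and Foxc1, the higher with a signal of 69.2, neither in reach of the 50 kb windows. Foxf1, Foxc2 and Foxl1 share 46.3 kb of chromosome 8 (chr8:121084386-121130644), with the nearest summits 412 kb to the left and 523 kb to the right. Foxd2 and Foxe3 share 19.8 kb of chromosome 4 with the nearest summits 480.3 and 109 kb away. Genes of a group share their surroundings and are not independent observations.

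**Figure D3:**
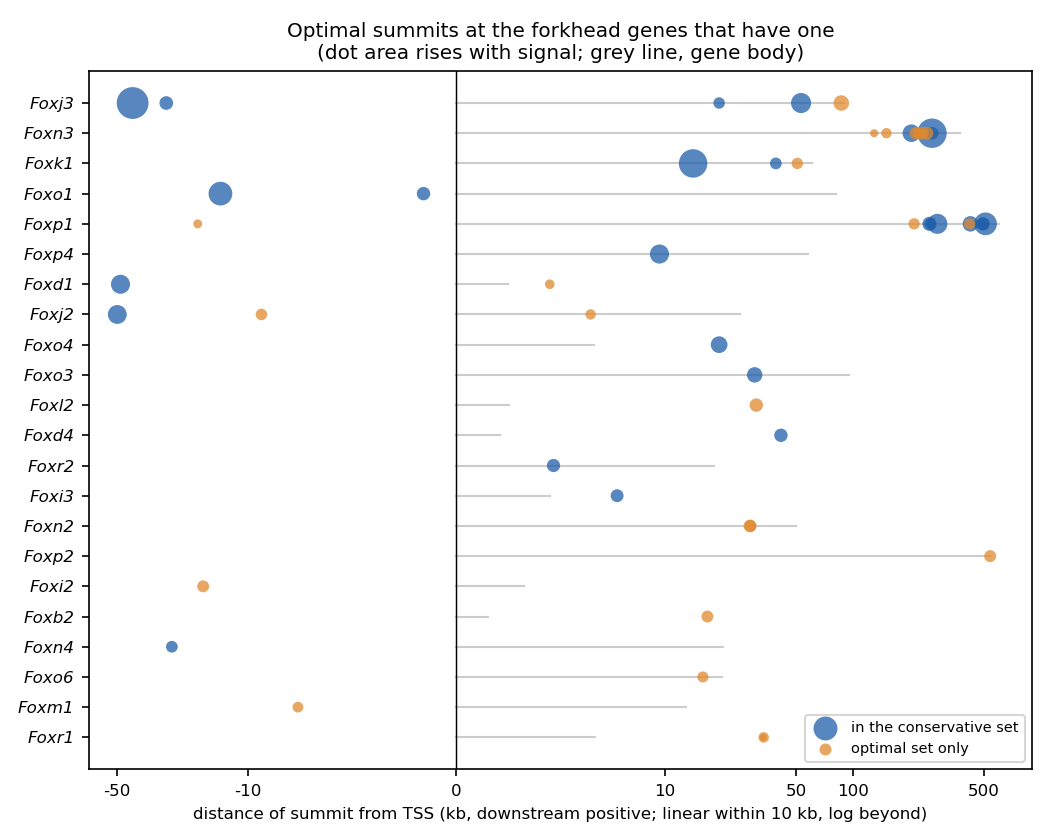
Distance in kb from the TSS to each optimal summit at the 22 Fox genes that have one, downstream positive, on an axis that is linear within 10 kb of the TSS and logarithmic beyond, with dot area rising with signal, grey lines for gene bodies and blue dots for summits in the conservative set. No summit lies within 1 kb of the 5' end of its gene.

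A summit was more frequent at longer Fox genes, a grouping made after the values were seen and not tested. All 8 Fox genes of 50 kb and over had a summit (100%, interval 63.1 to 100), against 64.4% of the 4890 genes of that length. They are Foxj3, Foxk1, Foxn3, Foxo1, Foxo3, Foxp1, Foxp2 and Foxp4. Of the 10 Fox genes of 10 to 50 kb, 6 had one (60.0%, against 47.4%). Of the 24 Fox genes under 10 kb, 8 had one (33.3%, interval 15.6 to 55.3, against 39.4%). The window grows with the gene, and within 50 kb of the TSS alone 6 of the 8 long Fox genes (75.0%) had a summit, against 48.6% of long genes. The long Fox genes carried a mean of 4.00 summits, against 1.57 for all long genes. Per 100 kb of window they ran from 0.169 summits at Foxp2 to 3.59 at Foxj3, and no such value was counted for all long genes. The median Fox gene is short, 6.10 kb against 17.3 kb, as the family holds 24 genes under 10 kb and 8 of 50 kb and over. Foxp1 and Foxn3 alone held 19 of the 51 summits (37.3%), and the 5 Fox genes with most summits held 30 (58.8%).

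**Figure D4:**
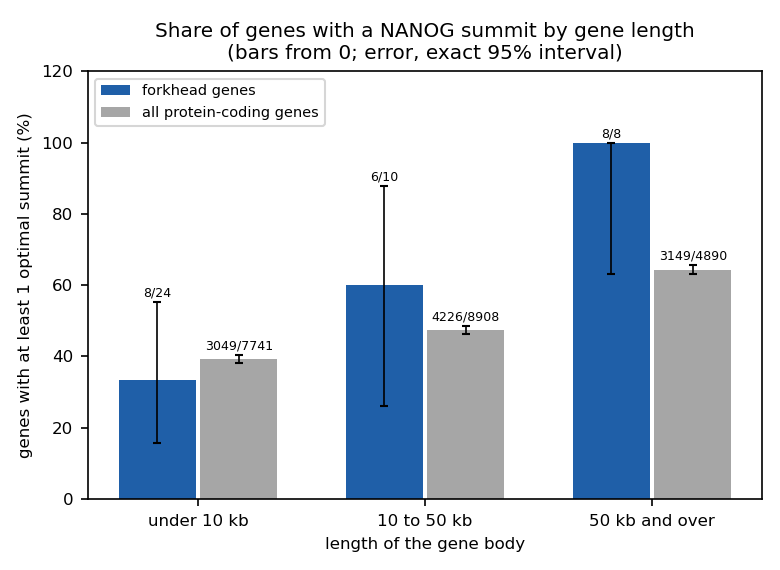
Percent of genes with at least 1 optimal summit by gene body length, for Fox genes and for all protein-coding genes, with 95% exact intervals. The Fox share rises from 33.3% under 10 kb to 100% at 50 kb and over, and that of all genes from 39.4% to 64.4%.

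Fox summits lay mostly within genes, and few lay at the family's own starts. Inside a protein-coding gene were 37 of 51 (72.5%, interval 58.3 to 84.1), against 45.5% of the optimal summits on assembled chromosomes, and 32 of them were inside the Fox gene itself. The assignment rule counts gene bodies, so this share is partly set by the rule. Its interval takes the summits as independent, although Foxp1 and Foxn3 alone held 19 of the 51. Of the 51, 11 were upstream of the Fox gene and 8 past its end. None was within 1 kb of the 5' end of its Fox gene, and with every start of the RefSeq promoter table, which holds 26 of the 42 genes, 3 were: 2 at Foxp1 and 1 at Foxr2. Within 1 kb of the 5' end of any protein-coding gene were 5 Fox summits (9.80%, against 3.21% of all), at Faim, Tulp3, Med12 and, for both Foxr1 summits, Trappc4. The rule sets part of this share too, as it takes only summits in gene bodies or within 50 kb of a TSS. The 2 Foxr1 summits are 0.219 kb apart. A Fox gene was the nearest TSS for 25 of the 51 (49.0%) and for the best summit of 11 of the 22 genes. No matching share over all genes was counted for own starts or for the nearest TSS. On mm9, where exons were read from the annotation, 30 of 44 Fox peaks were intronic (68.2%, against 39.7% of all peaks), 2 were exonic (Foxj3 and Foxp2) and 12 were intergenic. On that build 1 Foxp1 peak midpoint lay at -0.155 kb and 1 Foxr2 midpoint at 0.420 kb from the mm9 5' end of the gene. The 2 builds differ in these 5' ends. The highest Foxp1 peak lay 253 kb from the mm9 end, and the highest Foxp1 summit 509 kb from the mm10 end. The Foxr2 summit lay 4.65 kb from its mm10 end. These midpoints thus do not mark peaks at the mm10 5' ends.

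Replicate support of Fox summits was close to that of the whole set. Among the top 15891 regions of each replicate, 25 of 51 Fox peaks shared at least 1 bp with both (49.0%, interval 34.8 to 63.4), against 50.4% of all optimal peaks. Replicate 1 covered 43 (84.3%, against 86.3%) and replicate 2 covered 30 (58.8%, against 54.6%). The conservative set overlapped 27 (52.9%, against 56.7%) and left 14 Fox genes with a summit (33.3%, against 33.7% of genes). Support followed the signal: 14 of 15 Fox peaks in the uppermost of 3 signal classes, set to hold equal numbers of all peaks, had both replicates (93.3%), 9 of 20 in the middle class (45.0%) and 2 of 16 in the lowest (12.5%). Over all peaks the shares were 93.2%, 48.3% and 9.67%.

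By gene, 12 had at least 1 summit found by both replicates: Foxd1, Foxi3, Foxj2, Foxj3, Foxk1, Foxn3, Foxo1, Foxo3, Foxo4, Foxp1, Foxp4 and Foxr2. Counting the top regions of each replicate in the gene windows, whether or not they overlap, 15 of 42 Fox genes had one in each (35.7%, against 38.4% of all genes). Replicate 1 alone supported Foxb2, Foxd4, Foxi2, Foxl2, Foxn2, Foxo6 and Foxp2, and replicate 2 alone supported Foxm1, Foxn4 and Foxr1. Each of the 22 Fox genes with a summit had support from at least 1 replicate. Support of the same summit was not counted by gene over all genes, so no such share stands beside these numbers. The lowest signal among the top regions was 17.3 in replicate 1 and 9.08 in replicate 2, which are on separate scales. The read depth of each replicate is unknown.

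**Figure D5:**
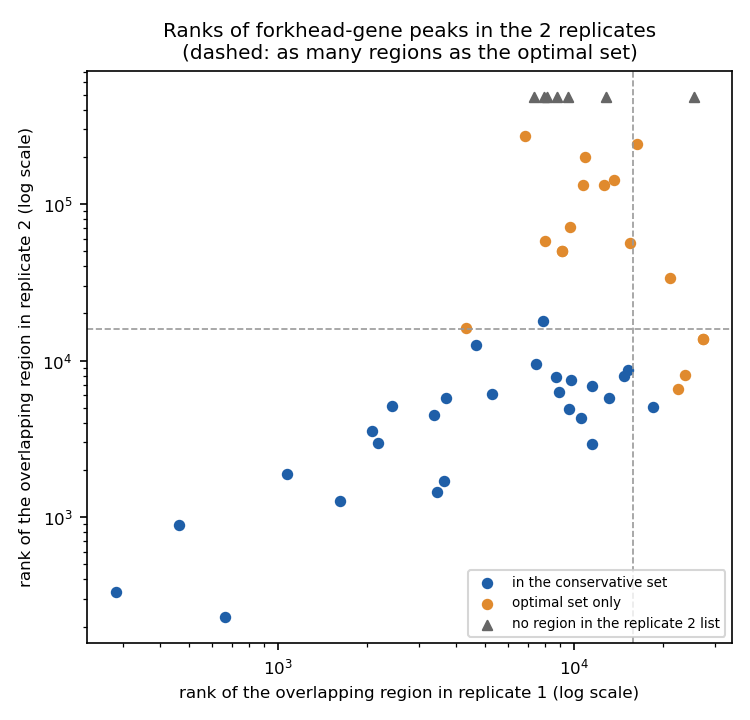
Rank of each Fox peak in the relaxed lists of replicate 1 and replicate 2, both axes logarithmic, with dashed lines at rank 15891, blue dots for peaks of the conservative set and triangles above the axis range for peaks with no region in replicate 2. The highest peaks, led by Foxj3 (285 and 334) and Foxn3 (664 and 229), rank high in both lists, and 7 peaks are drawn as triangles.

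Genes that act with the Fox proteins were counted in the same way. Of 30 genes of the PI3K, AKT and FOXO pathway, 22 had a summit (73.3%, interval 54.1 to 87.7), against 48.4% of all genes, with a median gene length of 68.5 kb. High signals in this list were at Skp2 (251), a ubiquitin ligase subunit, Sgk1 (210.2), a kinase that phosphorylates FOXO proteins, and Usp7 (135), a deubiquitinase. Of 15 FOXH1 partners and Nodal targets, 8 had one (53.3%). The same summit of signal 318 was counted for Lefty1 and Lefty2, neighbouring genes for Nodal antagonists, and was followed by Acvr1b (268), a Nodal receptor, and Gsc (118). Smad2, Smad3 and Smad4, which encode the partners of FOXH1, had none in the optimal set. Smad3, unlike Smad2 and Smad4, had 1 summit in the conservative set and 1 top region in each replicate. Of 14 hedgehog pathway genes, 11 had one (78.6%), led by Gli2 (371) and Sufu (195), with Ptch1, a hedgehog receptor, at 109. The lists are small and their intervals wide. The median gene length was 68.5 kb in the PI3K list and 45.5 kb in the hedgehog list, against 17.3 kb over all genes. Long genes have longer windows, and 64.4% of all genes of 50 kb and over had a summit. The part of gene length in these shares was not tested.

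Other families of developmental transcription factors gave a scale for the Fox genes. Sox genes had a summit in 10 of 19 cases (52.6%), with a median best signal of 79.7, led by Sox5 (230.3), Sox13 (191), Sox15 (124) and Sox2 (93.5), and the conservative set also gave 10 Sox genes. Hox genes had one in 26 of 39 cases (66.7%), but they stand in clusters and share summits, such as 1 of signal 158 that counted for 8 genes of the Hoxd cluster. The median best signals of 79.7 for Sox and 73.3 for Hox stand beside 41.6 for Fox. The Hox value of 73.3 was the best signal of every gene from Hoxb3 to Hoxb9, so shared summits weigh on it. The Fox value was 87.8 in the conservative set, where no Sox or Hox median was counted. None of these differences was tested, since the lists were chosen with results known.

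Motif content was read at the 44 mm9 peaks assigned to Fox genes, within 50 bp of each midpoint. The octamer ATGCAAAT was present in 3 (6.82%, against 2.35% of all 13341 peaks), at Foxn3, Foxp4 and Foxf2. The NANOG homeodomain motif TAATGG was present in 5 (11.4%, against 6.85%) and the SOX motif AACAANG in 5 (11.4%, against 18.3%). The forkhead motif GTAAACA and its core TAAACA were found in 0 of 44 (exact upper limit 8.04%), against 2.32% and 8.58% of all peaks, and the ESRRB motif in 0 against 1.40%. The forkhead motif contains the core, so these are not separate observations. Within 100 bp the forkhead motif was in 6.82% of Fox peaks against 4.30% of all, and near the midpoints of the replicate 2 list in 5.26% against 2.46%, so its order against all peaks turned. In windows of the same width 300 bp downstream, the Fox peaks held the octamer in 2.27% (against 0.802% of all peaks), SOX letters in 11.4% (against 7.04%), the NANOG motif in 6.82% (against 4.00%) and the core in 4.55% (against 7.90%). Without replicate 2 the SOX share near the midpoint was 17.7% against 15.9%, so its order against all peaks turned, and the octamer share was 3.23% against 2.31%. The median GC content was 47.0% at Fox peaks and 45.3% over all peaks. No motif count of the Fox peaks was tested.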

How the data were processed

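NANOG ChIP-seq peak lists of 2 biological replicates, 1 group, were used on builds mm9 and mm10. For mm10 the authors ranked 300000 regions per replicate and in the pool for the irreproducible discovery rate (IDR) procedure, which left an optimal set of 15891 and a conservative set of 9431 peaks. Each deposited mm10 region has a signal, the −log10 of the q-value and a summit. The deposited mm9 lists (22082 peaks for replicate 1, 6618 for replicate 2, 13341 for the series) give an enrichment ratio, the −log10 of the p-value and an untransformed q-value. The sources used here do not name the read depth, IDR threshold, aligner and peak caller. Intervals cover counting error only. The control experiment named in the labels was not used here.

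Gene positions came from a RefSeq GRCm38.p6 table of 21887 protein-coding genes. Strand, needed for the TSS, came from the RefSeq promoter table for 17492 and from the mm9 annotation by name for 4047, and 348 without a strand were left out. For Fox genes the numbers were 26 and 16. Foxl1, listed as a pseudogene on mm9, took only its strand from there. Exons, motifs and the peak sequences were read on mm9, and mm9 and mm10 coordinates were never compared. Positions are 1-based. Of the optimal summits, 39 lay off the assembled chromosomes, and 14 regions occur more than once with different summits.

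Replicate support was 1 shared bp with the 15891 top regions of a replicate. No p-values were computed, since there is 1 group. Intervals are exact Clopper-Pearson intervals at 95%. Those over summits or peaks take each as independent, although many share a gene, so they may be too narrow. Members are named, with full values for the 15 of highest signal and the 5 with most summits, and up to 4 genes from each related list. Values of 1 member and of some genes of the related lists are not reported here. Members, lists and rules were chosen with earlier results of these data known. Alternatives changed the peak set, the window, the assignment, the overlap, the replicates and the motif window. Counting was tested on simulated data. Tools were SciPy 1.17.1 (intervals), pandas 2.3.3 and NumPy 2.4.6 (tables), and matplotlib 3.10.9 (figures), under Python 3.11.15.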

Additional observations from a re-analysis of the deposited data

How the results depend on the processing

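The number of Fox genes with a summit, 22, was 14 in the conservative set and 13 in the peaks above the median signal, and 19 to 21 with 1 replicate left out. It was 15 with a 10 kb window, 26 with 100 kb, 20 without gene bodies, 17 by the nearest TSS and 21 on mm9. The 51 summits became 27 in the conservative set, 21 above the median signal, 79 with 100 kb and 29 without gene bodies, and 48 to 54 with 1 replicate left out. Alternatives chosen after seeing the data gave 32 summits without Foxp1 and Foxn3, 49 when summits within 500 bp were joined, and 3 rather than 0 summits within 1 kb of an own start with all RefSeq starts. Support by both replicates, 49.0%, became 86.3% with the whole relaxed lists, and support by a single replicate was 58.8% to 84.3%. The median rank of the best summit, the top 47.8% against 36.5% for all genes, was 28.9% to 35.1% in the other lists against 36.6% to 41.3%, so its order against all genes turned. The forkhead core share, 0, became 11.4% within 100 bp and 4.84% to 10.5% in the lists of single replicates, and the SOX share, 11.4%, became 27.3% (3 of 11 peaks) at a q-value of at most 0.001. Without replicate 2 the octamer share, 6.82%, was 3.23% (2.31% of all peaks) and the SOX share was 17.7%, above all peaks (15.9%) rather than below, and at that q-value the octamer share was 18.2% (2 of 11). The cause of these shifts was not tested beyond the sets and windows themselves, which hold fewer or more peaks. No paired analysis was possible because there is 1 group and no test. Unknown depth limits every share, and a Fox gene without a summit may have a site below the authors' threshold.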
